A study of Oryza sativa with 19 samples.

Results

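Constitutively expressed genes are transcribed in nearly every tissue of a plant. Many of them serve tasks that each living cell performs, such as protein synthesis, energy supply and the cytoskeleton, and the steadiest of them serve as reference genes for normalizing measurements of other transcripts. The probes described here were picked for that behaviour in rice: each read an FL-cDNA locus (a place in the genome to which full-length cDNA clones map) and gave a bright signal of nearly the same strength in shoot, root, panicle and callus. They were chosen by their measured values, on the array design called S1. The candidates were the 16138 non-control probes with names ending in _C (10467 common probes of a locus) or starting with E5_ (5671 probes), at 11426 loci. The signal of each channel was scaled to an array median of 1000, capped at 100000, taken as log2 and averaged over the channels and then over the replicates of a group. A probe was kept when its means in the 4 Nipponbare tissues all lay between 13 and 16 on this log2 scale (8192 to 65536 scaled units) and spanned 0.5 or less, a ratio of at most 1.41 between the highest and the lowest tissue. This left 176 probes at 164 loci, 1.09% of the candidates. The means and spans over the Nipponbare tissues on S1 are therefore descriptions, and no test of them is given.

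RNA levels were measured on 2-colour Agilent oligo-arrays of the designs S1 and S2, with both channels of an array holding the same RNA. The variety Nipponbare (NB, a japonica rice) gave shoots from soil in a greenhouse (10 days per the labels, an older age per the study's methods), roots of 10 days from water culture in a growth chamber (16 h light, 28 °C), panicles from the field, and callus, an undifferentiated tissue kept on induction medium for 28 days (24 h light, 30 °C). The variety IR64 (an indica rice) gave shoots of the same labelled age and growth. No group carried a transgene. The study's methods name dichlorophenoxyacetic acid and a vitamin solution as parts of the callus medium. They name no added treatment for the other groups. Each design had 2 arrays per group, but for NB panicle S2 had 1. Tissue and growth conditions changed together and cannot be told apart. The labels name a different RNA extraction kit for the IR64 shoots than for the NB groups, while the study's methods name Trizol for the shoots and the RNeasy kit for the other tissues. By the labels kit and variety cannot be told apart, and by the methods kit and tissue cannot. Per the study's methods, plants were pooled for RNA and a sample was hybridized repeatedly, so the spread between replicates may be technical. The background-subtracted signal of S1 arrays had medians of 54.8 to 167.2, and that of S2 arrays 37.5 to 178.7, and the replicate 2 arrays of all groups shared 1 scan date while those of replicate 1 had 3 others. No identifier of the arrays could be matched to a gene name, so the tissues were not checked against marker genes and the loci are given by their identifiers. In these, R03-CHRv2-01154F stands for locus 01154 on strand F of chromosome 3, and R03-00441F_C is the common probe of locus 00441 on that strand. The brightness of a probe depends also on its sequence, so levels are compared between samples and not between probes.

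Steadiness was the tail of a continuous distribution. Of the 16138 candidates, 1304 (8.08%) had all 4 NB means between 13 and 16, and the 176 steady probes were 13.5% of these. The span of the other 1128 bright probes had a median of 1.15, and that of the 176 a median of 0.370 (0.0570 to 0.496). At the limit, the probes inside and outside were almost alike. The steady probes E5_07328, R04-00960R_C and R02-01092F_C had spans of 0.496, 0.496 and 0.493, and the next ones outside, E5_10722, R02-00930F_C and R09-00034F_C, had 0.500319, 0.500329 and 0.502. Among probes with a span within the limit, the lowest tissue means just inside were 13.01 (R12-00011F_C) and 13.02 (E5_05027), against 12.993 (E5_07500) and 12.992 (R06-00507F_C) just outside. The highest tissue means just inside were 15.96 (R05-00149R_C) and 15.92 (E5_05205), against 16.11 (R09-00183F_C) and 16.12 (R03-00877R_C) outside.

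**Figure D1:**
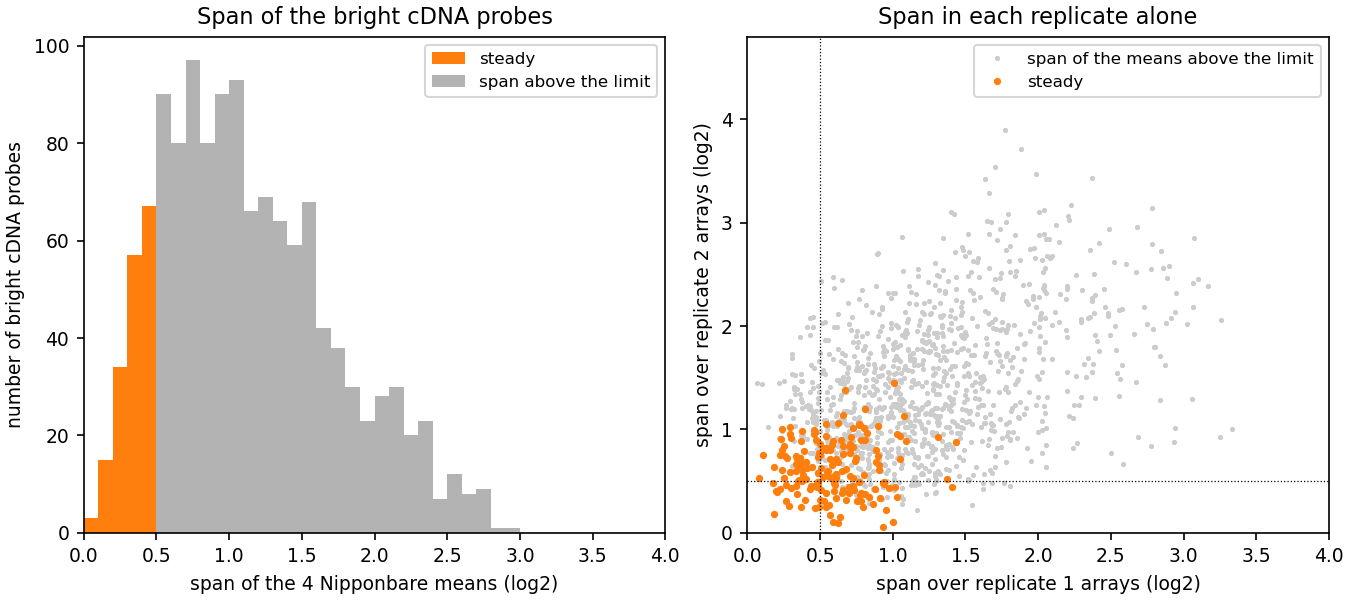
Left, the number of bright cDNA probes on S1 by the span of their 4 Nipponbare tissue means (log2), with the 176 steady ones in orange and the other 1128 in grey. Right, the span over the replicate 1 arrays against the span over the replicate 2 arrays for the same probes, with dotted lines at 0.5. The orange points lie on both sides of the dotted lines, and 25 of the 176 lie within the limit in both replicates.

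The 176 probes lay on all 12 chromosomes, from 7 probes on chromosomes 8 and 11 to 24 on chromosome 3. Per 100 candidate probes of a chromosome, this was between 0.662 (chromosome 8) and 1.45 (chromosome 5). The strands held 91 (F) and 85 (R) of them, a share of 51.7% on F against 50.5% of all candidates. Of the 176, 110 were common probes and 66 were E5 probes, and the E5 share of 37.5% stood beside 35.1% of all candidates. They sat on single loci for the most part: 153 loci had 1 steady probe, 10 loci had 2, and R09-CHRv2-00161F had 3. Loci with a probe for a transcript variant made up 20.1% of the loci of the steady probes, 17.6% of those of the other bright probes and 15.4% of all candidate loci. These values are counts without a test.

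No tissue stood out as the highest or the lowest among the steady probes. NB shoot was the highest of the 4 tissues for 51 of them, callus for 51, root for 39 and panicle for 35, and the lowest was callus for 51, shoot for 47, panicle for 42 and root for 36. Among the other 1128 bright probes, shoot was the lowest for 490 and callus the highest for 351. The median level of the 176 was 13.98 for NB shoot, 13.89 for root, 13.88 for panicle and 13.90 for callus. Their mean NB level ran from 13.08 to 15.89, and 98 of them lay between 13 and 14, 62 between 14 and 15, and 16 above 15. All 176 were well above background in both channels on all 8 NB arrays, and 0 had a saturated spot on S1.

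The smallest span, 0.0570, belonged to R03-00441F_C on chromosome 3. Its 2 arrays gave 13.56 and 12.62 in NB shoot, 13.28 and 13.02 in root, 13.20 and 13.07 in panicle, and 13.08 and 13.11 in callus. The replicates of shoot thus lay farther apart than any pair of tissue means. R05-00149R_C on chromosome 5 had a span of 0.121 at a mean NB reading of 15.89, close to the upper limit. It read 15.92 and 15.75 in NB shoot, 16.07 and 15.84 in root, 15.83 and 15.97 in panicle, and 15.70 and 16.00 in callus, so the tissues overlapped fully. R02-00959F_C on chromosome 2 had a span of 0.112, and its replicate 1 array was the higher one in each tissue: 13.74 and 12.98 in NB shoot, 13.55 and 12.98 in root, 13.69 and 13.06 in panicle, 13.84 and 12.80 in callus. The rest of the 6 smallest spans were those of E5_12461 (R06-CHRv2-00612F) at 0.0725, E5_07816 (R01-CHRv2-00849R) at 0.0866 and E5_05205 (R01-CHRv2-00607R) at 0.123. The readings of E5_05205, E5_03987 (R03-CHRv2-01343F) and E5_01786 (R09-CHRv2-00038R) also lay near the upper limit, at means of 15.86, 15.74 and 15.66, which gives no order of their transcript levels.

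The spread between replicates was close to the limit on the span for many steady probes. Pooled over the 4 NB tissues, the SD between replicates of a steady probe had a median of 0.428 (0.0261 to 0.923), beside 0.397 for the other bright probes and 0.395 for all candidates, and it exceeded 0.5 for 57 of the 176. By tissue, its median was 0.204 (shoot), 0.259 (panicle), 0.356 (root) and 0.497 (callus). The smallest was that of R03-00106F_C on chromosome 3, which read 14.31 and 14.31 in NB shoot, 14.26 and 14.26 in root, 14.26 and 14.33 in panicle, and 14.13 and 14.15 in callus. E5_04629 (R02-CHRv2-01072F) followed with an SD of 0.0672. The largest were those of E5_00628 (R02-CHRv2-00443R), 0.923, and E5_05205, 0.901. E5_05205 gave 16.61 and 15.22 in NB shoot, 16.61 and 15.07 in root, 16.57 and 15.23 in panicle, and 16.10 and 15.48 in callus. Its replicate 1 arrays were higher in each tissue by more than the whole span limit, and the first of them in shoot and root were at the cap of 16.61, so its small span holds for means over unlike arrays.

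Applied to the arrays of 1 replicate number alone, the same limits gave fewer probes, and only some of them were among the 176. The 4 NB arrays of replicate 1 gave 157 probes, of which 67 were among the 176, and those of replicate 2 gave 111, of which 61 were. In the other direction, the span of the 176 had a median of 0.568 over the replicate 1 arrays and 0.598 over those of replicate 2. Both sets shared 19 probes. These had to be among the 176, since the mean of 2 replicates that each meet the limits meets them too. Leaving out single arrays also moved the choice: without NB root replicate 2 the rule gave 110 probes, and without NB callus replicate 1 it gave 124, of which 78 were among the 176.

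The 19 probes steady in each replicate by itself sat at 17 loci. R06-00032R_C on chromosome 6 had the smallest span of them, 0.149. Its values were 14.39 and 13.71 in NB shoot, 13.90 and 13.96 in root, 13.96 and 13.86 in panicle, and 14.04 and 13.76 in callus. E5_07327 on chromosome 9 read 14.33 and 14.48 in NB shoot, 14.35 and 14.31 in root, 14.08 and 14.17 in panicle, and 14.23 and 14.35 in callus, with panicle lowest on both arrays. R09-00512F_C, R03-00106F_C and E5_04629 were also among the 19. The loci R02-CHRv2-01072F (E5_04629 and E5_04452) and R09-CHRv2-00161F (E5_07327 and E5_04788) each held a pair of them. The 19 are a description of the arrays that chose them and not an independent check.

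**Figure D2:**
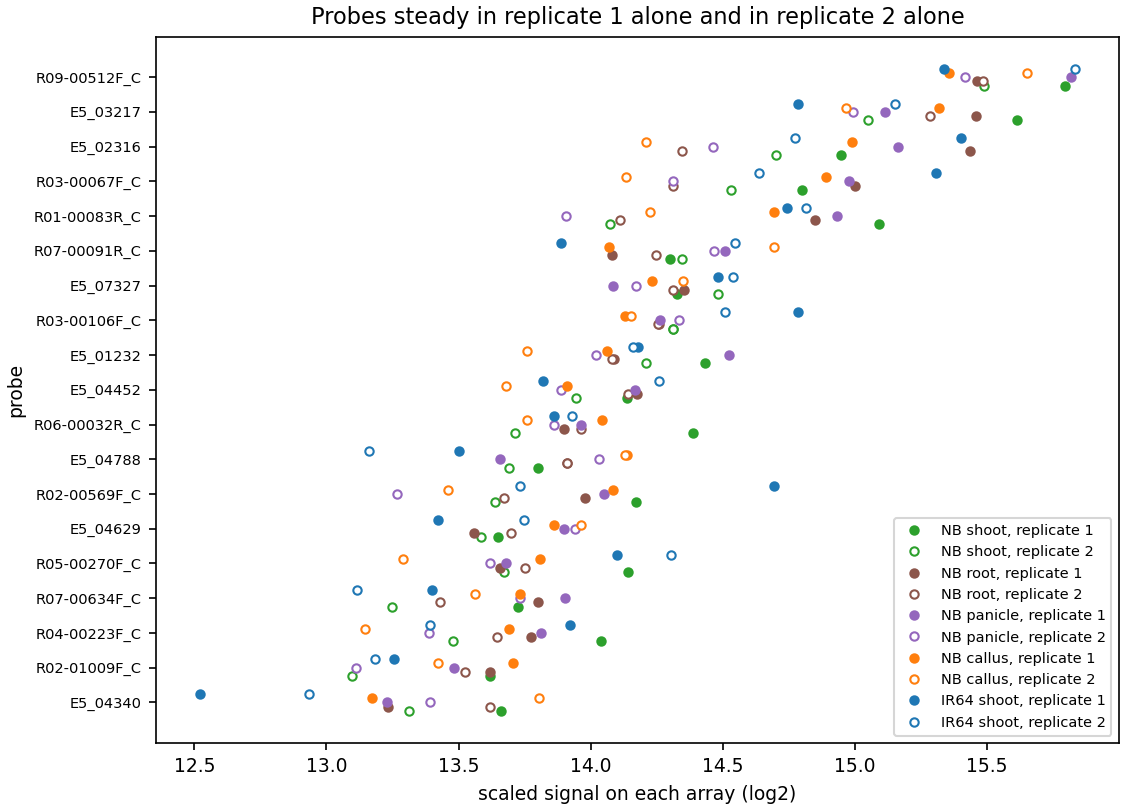
Scaled signal (log2, horizontal axis) on each S1 array for the 19 probes that met the limits in replicate 1 alone and in replicate 2 alone, ordered by mean Nipponbare level. Filled points are replicate 1, open points replicate 2, and colours are the 5 groups. For R03-00106F_C the 8 Nipponbare points lie between 14.13 and 14.33.

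Where a locus held more than 1 steady probe, the probes could be set side by side within the locus, and 3 such loci are given here, chosen after their values were seen. At R02-CHRv2-00227F on chromosome 2, E5_04340 read 13.66 and 13.31 in NB shoot, 13.23 and 13.62 in root, 13.23 and 13.39 in panicle, and 13.17 and 13.81 in callus. The common probe R02-00227F_C read 13.14 and 13.21 in NB shoot, 12.84 and 13.34 in root, 13.02 and 13.12 in panicle, and 12.91 and 13.55 in callus. For both, callus was the highest and panicle the lowest tissue by mean, and the replicate 2 array was the higher one in root, panicle and callus. At R04-CHRv2-00196R on chromosome 4 the pair also ran together. E5_11254 read 14.20 and 13.67 in NB shoot, 13.65 and 13.58 in root, 13.75 and 13.27 in panicle, and 13.48 and 14.20 in callus. E5_11667 read 14.21 and 13.75 in NB shoot, 13.60 and 13.84 in root, 13.74 and 13.42 in panicle, and 13.48 and 14.43 in callus. Shoot was highest and panicle lowest for both. At R06-CHRv2-00705F the order differed: E5_07512 was highest in panicle and lowest in root, and R06-00705F_C highest in callus and lowest in shoot, with spans of 0.491 and 0.485. Some loci of steady probes also held a bright S1 probe outside the span limit. The bright but not steady probes sat at 971 loci, and only 949 of these had no steady probe. Examples are E5_04440 at R09-CHRv2-00161F, with a span of 0.794, and E5_07112 at R05-CHRv2-00190F, with 0.789.

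The IR64 arrays were not used in the choice, and they ask whether the steadiness of a probe held in shoots of another variety. The span over all 5 groups stayed within 0.5 for 99 of the 176 probes (56.2%), and the IR64 shoot mean lay within 0.5 of the NB shoot mean for 150 (85.2%). The latter share was 79.1% among the other bright probes and 74.9% among all candidates. The NB shoot arrays did take part in the choice, so the selection itself can raise the share of the 176, and no conclusion is drawn from the comparison. Without IR64 shoot replicate 2 the count of 99 became 52, and with 75th percentile scaling it became 69. Of the candidates of any brightness, 1259 had an NB span within 0.5, and the span over 5 groups stayed within 0.5 for 672 of them. That share is near the one of the 176, so it is not called particular to the steady bright probes. The 1259 include the 176 themselves and probes at the cap, whose spans are small by construction. The difference of IR64 shoot from NB shoot had a median of 0.02 over the 176, beside 0.03 over all 36868 probes tested on S1, with 91 higher and 85 lower. That median was 0.12 without NB shoot replicate 1 and -0.15 without NB shoot replicate 2. The smallest spans over 5 groups were those of R02-00959F_C (0.112, IR64 values 13.64 and 12.98), R06-00032R_C (0.155, IR64 values 13.86 and 13.93), E5_05205 (0.156) and R09-00512F_C (0.168). R09-00512F_C on chromosome 9 read 15.34 and 15.83 in IR64 shoot, 15.80 and 15.49 in NB shoot, 15.46 and 15.49 in root, 15.82 and 15.42 in panicle, and 15.35 and 15.65 in callus, and the 5 groups overlapped.

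In the limma fit over all probes of S1, 2 of the 176 steady probes were called between IR64 shoot and NB shoot at an adjusted p below 0.05 (Benjamini-Hochberg, two-sided), 1 higher and 1 lower in IR64. Of all probes tested, 2.79% were called, 0.703% higher and 2.09% lower in IR64. An unadjusted p below 0.05 was reached by 9 of the 176, by 11 with the replicate block and by 14 with scan date as a block. The 9 are about what this cutoff gives where no probe differs and arrays vary independently, which they did not. The share of all probes below this cutoff is not given, so these counts are not read as a result. The standard error of the difference had a median of 0.408 for these probes. In simulated data 0% of changes of 1 on the log2 scale were recovered, 72% of changes of 2 and 98% of changes of 3. The simulation changed 50 probes at each size among 36814 and drew errors independently for each array. In the data, arrays with the same replicate number deviated together. Differences near 1 were thus not detectable with 2 arrays a group in that setting, and recovery in the data may differ. With the replicate number as a block, 6 of the 176 were called, 3 in each direction, against 4.63% of all probes.

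The probe lower in IR64 was R09-00261R_C on chromosome 9, the single probe of its locus on both designs. It read 13.78 and 13.80 in NB shoot, 13.58 and 14.18 in root, 13.39 and 13.69 in panicle, 12.87 and 14.30 in callus, and 7.34 and 7.90 in IR64 shoot. Each NB array lay far above both IR64 arrays, neither of which was well above background in both channels. On the scale used here, IR64 shoot was at least 63.1-fold lower than NB shoot (fitted difference -6.17, SE 0.465, adjusted p = 0.000205 in limma). For each IR64 array the bound took the lowest detected level or the probe's own reading, whichever was higher. With normexp, loess and Aquantile in place of this scaling, the difference was -4.32. This bound and those given below therefore hold for the scale used here and not for every processing. The call held with each of the 4 shoot arrays left out in turn. The probes were designed on the NB genome, so weaker binding of the IR64 transcript and a lower transcript level cannot be told apart.

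The probe higher in IR64 was E5_07001 at locus R01-CHRv2-00267R on chromosome 1. It read 13.94 and 13.87 in NB shoot, 13.93 and 13.81 in root, 14.14 and 14.25 in panicle, 14.16 and 14.57 in callus, and 15.47 and 15.46 in IR64 shoot, above every NB array. The difference was 1.56 (SE 0.279, adjusted p = 0.0162 in limma). It was no longer called when any 1 of the shoot arrays was left out, with differences between 1.53 and 1.59. The call was also lost with scan date as a block (difference 1.69, adjusted p = 0.0505). When only both shoot groups were fitted it was lost too (adjusted p = 0.123). The other 4 probes of this locus did not share the rise. Their differences of IR64 shoot from NB shoot lay between -0.62 and 0.05, and 0 of the 4 were called. The common probe R01-00267R_C on S2 read 13.73 and 14.47 in IR64 shoot and 14.53 and 14.90 in NB shoot.

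**Figure D3:**
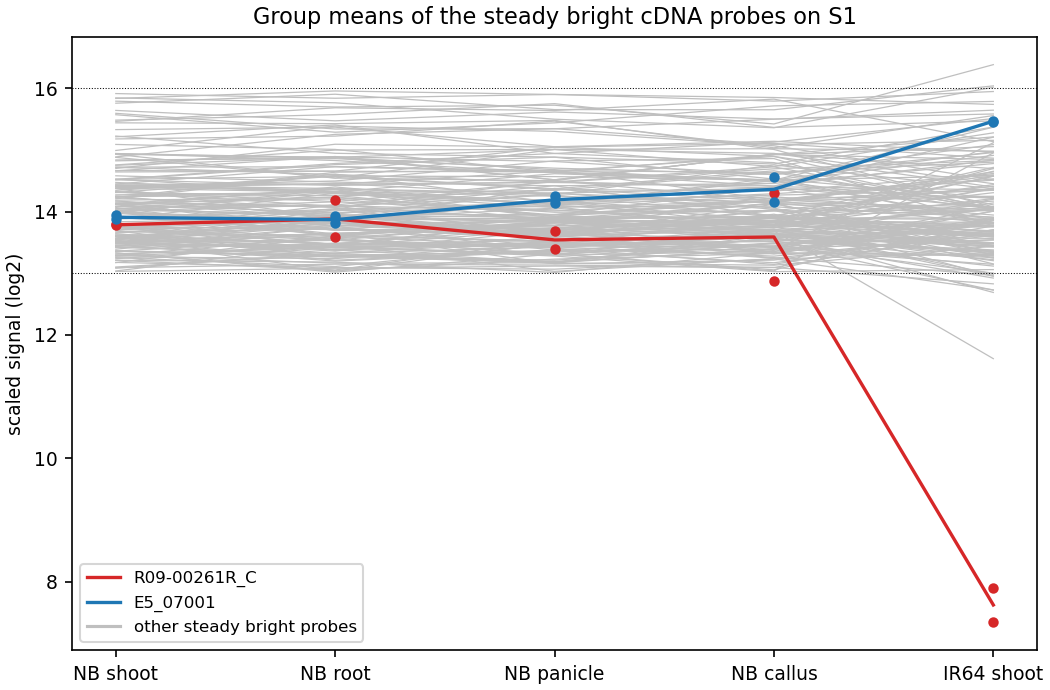
Group means on S1 (scaled signal, log2) of the 176 steady bright cDNA probes, 1 line per probe, with lines joining the groups to guide the eye. Dotted lines mark 13 and 16, and the coloured points are the 2 arrays of each group for the probes called in IR64 shoot, R09-00261R_C (red, down to 7.62) and E5_07001 (blue, up to 15.47).

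The locus R03-CHRv2-01154F on chromosome 3 was singled out after its values were seen. It held a pair of steady probes, E5_05027 and E5_04826, that were higher in IR64 shoot by 1.62 (SE 0.404) and 1.55 (SE 0.378), with adjusted p of 0.0838 and 0.0754 in limma, and of 0.0104 and 0.0123 with the replicate block. E5_05027 read 14.60 and 15.31 in IR64 shoot, against 13.39 and 13.27 in NB shoot, 12.74 and 13.30 in root, 13.10 and 13.53 in panicle, and 12.59 and 13.49 in callus. The other 8 probes of the locus, 2 on S1 and 6 on S2, gave differences from 1.24 to 1.69 in the same direction, and their NB spans lay between 0.27 and 0.78. The common probe R03-01154F_C, on S2, read 14.68 and 15.51 in IR64 shoot, 13.48 and 13.996 in NB shoot, 13.30 and 14.10 in root, 13.34 on the single panicle array, and 13.17 and 14.39 in callus. For all 10 probes both IR64 arrays lay above every NB array, as was true of 6.35% of the probes tested on S1 and 5.82% on S2. None of the 10 was called in the fit without a block, 8 had an unadjusted p below 0.05, and with the replicate block 4 of 4 on S1 and 5 of 6 on S2 were called, beside 4.63% and 3.64% of all probes. Without IR64 shoot replicate 2 the differences of the 6 S2 probes ran from 0.63 (E5_05244) to 1.17, and without any of the 4 shoot arrays of its design 0 of the 10 was called. Whether the probes of a locus read the same transcripts or overlap in sequence was not examined, so they are not counted as independent measurements.

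Of the other probes called with the block, R08-00255R_C on chromosome 8 differed by -2.02 (adjusted p = 0.0817 without and 0.00737 with the block). It read 11.29 and 11.94 in IR64 shoot and 13.69 and 13.58 in NB shoot, and 12.96 to 14.41 over the other NB arrays, with no overlap. R07-00521R_C on chromosome 7 differed by -1.36 (0.127 without and 0.0300 with the block), at 13.81 and 14.35 in IR64 shoot and 15.36 and 15.53 in NB shoot. A probe of the cDNA clone J033138K20, which the array also lists for a transcript variant of this locus, was on both designs. Its NB means spanned 0.343 on S1 and 1.01 on S2, and its difference of IR64 shoot from NB shoot was -0.42 on S1 and -0.62 on S2, with an adjusted p of 1.00 on each.

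None of the 176 probes was on S2, so the steadiness of the same probe could not be measured there. Other probes with the same locus identifier were. S2 carried 306 probes at 75 of the 164 loci, of which 301 were tested. These arrays took no part in the choice, though the labels do not say whether their RNA was extracted anew. In any of the 6 pairs of NB tissues, 34 of the 301 probes (11.3%) were called by limma at an adjusted p below 0.05, at 16 loci. Since panicle had 1 array on S2, its spread in 3 of these pairs is assumed to be that of the other groups. The 3 pairs without panicle, fitted without that array, gave 32 of 301, against 22.5% of all probes. In the fit with all groups, 23.5% of all probes tested on S2 were called. Of the 1129 tested S2 probes at loci with bright probes but no steady one, 20.6% were called. The mean NB level of the 306 had a median of 12.26, against 12.87 for the S2 probes of the other bright loci. With the replicate block the calls were 122 of 301, against 55.0% of all probes. Without NB shoot replicate 1 they were 8 (2.66%, against 11.4% of all probes), without NB shoot replicate 2 they were 10 (3.32%, against 11.03%), and without NB callus replicate 2 they were 21 (6.98%, against 19.3%), so the share over all probes dropped as well. Most calls came from callus against shoot, with 22 probes higher and 7 lower in callus (9.19% and 6.52% of all probes tested).

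The span of the 306 probes over the NB means of S2 had a median of 1.01, against 1.31 at the other bright loci and 1.53 over the 17222 cDNA probes of S2. For 63 of the 306 all 4 NB means lay between 13 and 16, and 17 of these 63 (27.0%) had a span within 0.5. At the other bright loci this was 21 of 282 (7.45%), and over all cDNA probes of S2 143 of 1276 (11.2%). The 17 sat at 11 loci. R04-CHRv2-00196R, with 2 steady probes on S1, had 3 of the 17, at spans from 0.341 to 0.498. R09-CHRv2-00161F, the locus with 3 steady probes on S1, also had 3. Its common probe R09-00161F_C read 14.002 and 13.82 in NB shoot, 13.63 and 13.89 in root, 13.44 on the single panicle array, 14.05 and 13.49 in callus, and 13.53 and 13.53 in IR64 shoot. At this locus the 10 probes of both designs had NB spans from 0.28 to 1.09, and none was called between IR64 shoot and NB shoot. At R12-CHRv2-00040F the S2 probe E5_08795 had the smallest span of the 17, 0.179, with 14.74 and 13.36 in NB shoot, 14.23 and 14.23 in root, 14.07 in panicle, and 14.33 and 14.07 in callus.

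At some loci the steady probe and the other probes gave unlike pictures. The following loci were chosen after their values were seen. At R02-CHRv2-00443R on chromosome 2, the steady probe E5_00628 read 14.69 and 13.58 in NB shoot, 14.81 and 13.39 in root, 14.88 and 13.14 in panicle, 14.55 and 13.81 in callus, and 14.89 and 14.18 in IR64 shoot. The other 3 probes of the locus on S1 had means from 9.89 to 10.24 in callus and from 6.43 to 8.01 in the other NB tissues, and the 6 on S2 had means from 9.58 to 10.78 in callus and from 5.74 to 8.97 elsewhere in NB. All 9 were well above background on every callus array and 0 of the 9 on every NB shoot array. On S2, 4 of the 6 were called in at least 1 tissue pair. R05-CHRv2-00190F on chromosome 5 was another such locus. Its steady probes R05-00190F_C and E5_05935 had spans of 0.236 and 0.320 on S1. On S2, 5 of its 7 probes were called in a tissue pair. One of these, E5_04193, read 10.59 and 10.76 in NB shoot, 13.38 and 13.03 in root, 14.27 in panicle, and 12.75 and 12.56 in callus, so that shoot lay below the other 3 tissues on every array.

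R11-CHRv2-00215F on chromosome 11 was a further one. Its steady probes E5_01340 and E5_02864 had spans of 0.29 and 0.47, and E5_01340 read 13.65 and 13.59 in NB shoot and 13.73 and 12.92 in callus. The S2 probe E5_02578 read 16.24 and 15.72 in NB shoot, against 13.83 and 13.30 in root, 14.24 on the panicle array, and 13.67 and 12.95 in callus, with no overlap between shoot and the rest. It was called in 2 of the 6 tissue pairs, and the other 3 S2 probes of the locus in 0. In IR64 shoot its mean was 16.27, a difference of 0.29 from NB shoot that was not called.

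Unlike readings within a locus also appeared between the varieties. At 5 loci, 9 of the 234 tested other probes on S1 were called lower in IR64 shoot and 0 higher, beside 2.09% and 0.703% of all probes. On S2, 4 of the 301 were called lower and 0 higher, beside 0.587% and 0.0526%. With the replicate block there were calls in both directions, 10 lower and 2 higher on S1 and 9 lower and 6 higher on S2, beside 4.63% and 3.64% of all probes called either way. All but 1 of those higher were probes of R03-CHRv2-01154F. In the fit without the block, all 4 on S2 belonged to R12-CHRv2-00094R on chromosome 12, as did 3 of the 9 on S1. Its steady probe E5_03248 read 15.53 and 15.44 in NB shoot, 16.12 and 15.03 in root, 16.12 and 15.38 in panicle, 15.61 and 15.12 in callus, and 15.62 and 15.32 in IR64 shoot, a variety difference of -0.01. The S1 probe E5_03685 read 13.48 and 13.40 in NB shoot and 9.12 and 8.97 in IR64 shoot, a difference of -4.39 (adjusted p = 0.000121). Its NB span was 2.11, with shoot the highest tissue. E5_04041 and the common probe R12-00094R_C differed by -3.51 and -2.13. Of the 4 called S2 probes, E5_04827 was not well above background on either IR64 array and was at least 59.6-fold lower there (adjusted p = 0.00961). The other 3 differed by -4.81 to -5.59 (0.0151 to 0.0230), and 2 of them, E5_10014 and E5_05617, were well above background on 1 of the 2 IR64 arrays. Leaving out any of the 4 shoot arrays kept the calls of E5_03685 and E5_04041 on S1. R12-00094R_C was lost without NB shoot replicate 1 (0.0536) and without NB shoot replicate 2 (0.0523), and the calls on S2 were lost without any of the 4 shoot arrays of S2, which left 0 of 4. Another S2 probe of the locus, E5_00967, was not called between the varieties (-0.79) and had an NB span of 2.05 with callus the highest tissue.

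**Figure D4:**
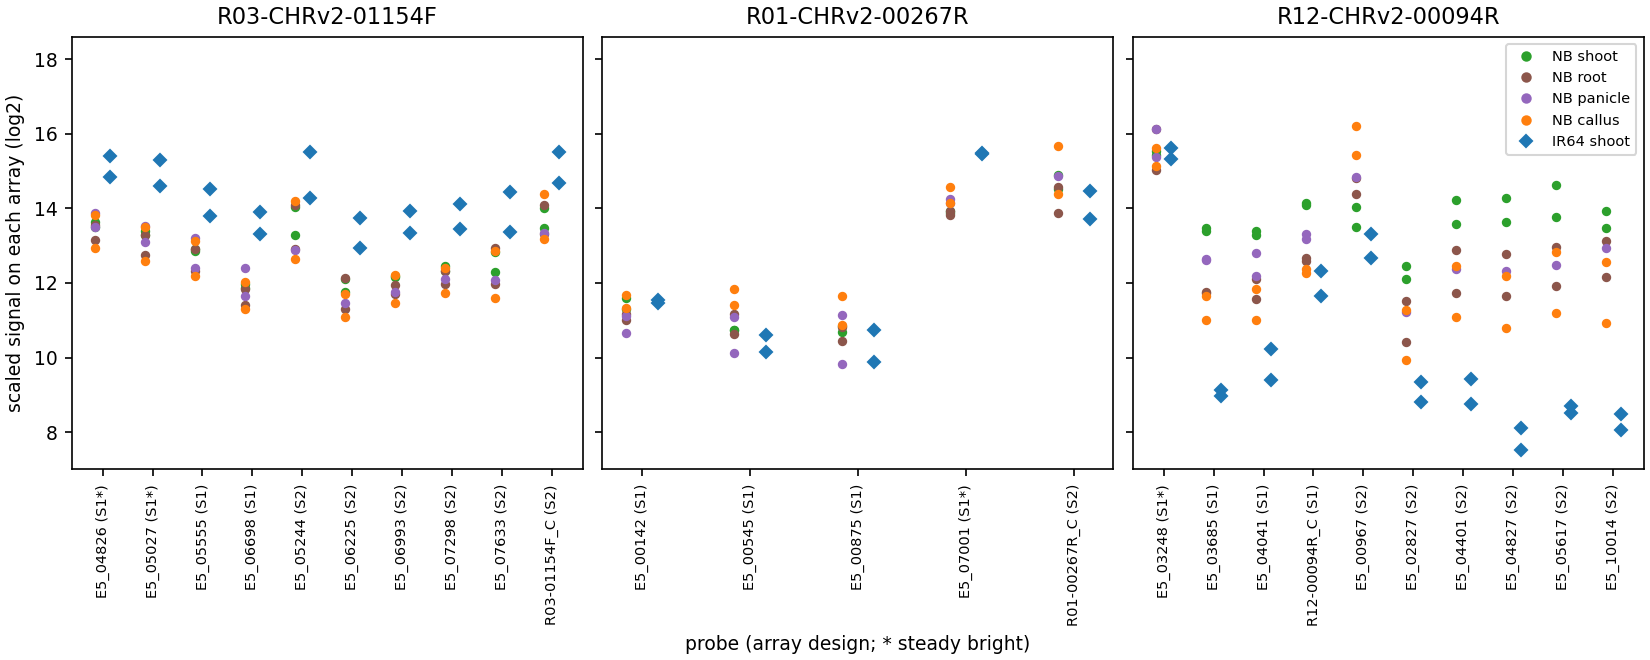
Scaled signal (log2) on each array for the probes of 3 loci, with Nipponbare arrays as circles coloured by tissue and IR64 shoot arrays as blue diamonds. Each position on the horizontal axis is a probe, with its design in brackets and an asterisk for the steady bright probes. IR64 shoot lies above every Nipponbare array for the 10 probes of R03-CHRv2-01154F, for 1 of the 5 of R01-CHRv2-00267R, and below every Nipponbare array for 8 of the 10 of R12-CHRv2-00094R, but not for its steady probe E5_03248.

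A similar split was seen at R02-CHRv2-00721F on chromosome 2. The steady probe E5_04200 read 14.11 and 13.94 in NB shoot and 13.14 and 13.16 in IR64 shoot, a difference of -0.87 that was not called (adjusted p = 0.21). Of the other 3 probes on S1, all were called lower in IR64. E5_05625 read 10.68 and 10.44 in NB shoot and 6.53 and 6.78 in IR64 shoot, where it was not well above background, so IR64 was at least 6.73-fold lower (adjusted p = 0.000653). E5_06335 was at least 7.98-fold lower by the same bound, and E5_03595 differed by -1.55 (0.0450), a call that was lost without each of the 4 shoot arrays (0.0980 to 0.286). On S2, 0 of the 5 probes was called, and their differences were unlike too. E5_04043 and R02-00721F_C differed by -0.24 and -0.21 and E5_03747 by -1.21 (adjusted p of 1.00 for each). E5_06100 read 10.54 and 11.45 in NB shoot and 6.71 and 7.58 in IR64 shoot, and E5_05863 read 10.31 and 10.26 in NB shoot and 7.70 and 7.26 in IR64 shoot. Neither was well above background on an IR64 array, which puts them at least 8.01-fold and 4.41-fold lower (adjusted p = 0.0685 for both, and 0.000361 and 0.00792 with the replicate block). Whether the probes of these loci read different transcripts was not tested.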

How the data were processed

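The deposited signal intensity of a spot came from Feature Extraction, with version 8.1.1.1 per the file headers and 7.5 per the submitters' processing notes. The authors' software had subtracted the background and normalized the dyes within each array, without normalization between arrays, and the deposited files carried flags for spots above background, saturated or outlying. The deposited log ratios and series-wide tables were not used. The probes had been designed on TIGR pseudomolecules release 2 of the Nipponbare genome, and no probe sequence or coordinate is given here.

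Groups and replicate numbers came from the sample titles. Non-control spots were scaled to a median of 1000 per array and channel, as the study's methods did per array, and capped at 100000. Outlier spots were left out and saturated spots kept. A probe was tested when well above background in both channels on every array of at least 1 group (36868 probes on S1, 36117 on S2). The 5 groups of a design entered a single model in limma 3.58.1 (lmFit and eBayes under R 4.3.3), with Benjamini-Hochberg adjustment within each pair of groups over all probes tested, and a threshold of 0.05. Precision is limited by having 2 arrays a group. The variety fit was tested on simulated data. The rest used Python 3.11.15, numpy 2.4.6, pandas 2.3.3 and matplotlib 3.10.9.

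Samples with the same replicate number deviated together: the differences of replicate 1 from replicate 2 correlated across probes at 0.11 to 0.64 over the 10 pairs of groups on S1 and at 0.55 to 0.83 over the 6 on S2. The number goes with the scan date. Alternatives were other scalings, background corrections, channels, span limits, filters, blocks and left-out arrays.

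Members, lists and rules for named probes were chosen with earlier results of these data known. Named were, 1 per locus, the steady probes with the smallest spans, the highest levels, values next to a limit, a call in IR64, or the smallest and largest spread between replicates. Planned lists of gene families and tissue markers could not be used, since 0 identifiers matched the reference table of gene names.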

Additional observations from a re-analysis of the deposited data

How the results depend on the processing

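The number of steady probes was 176. It was 94 with normexp, loess and Aquantile, of which only 53 were among the 176. It was 109 with a span of 0.4 and 266 with a span of 0.6. On the replicate 2 arrays alone, an alternative chosen after seeing the data, it was 111, with 61 shared. Without 1 NB array it ran from 110 to 173, with 78 to 132 shared. The other alternatives gave 157 to 178, of which 116 to 176 were shared, except for the replicate 1 arrays alone with 67 shared. The steady probes called between IR64 shoot and NB shoot were 2, and they became 6 with the replicate block, 1 when only both shoot groups were fitted, 5 with 75th percentile scaling and 6 with normexp, loess and Aquantile. Without 1 shoot array the count was 1 in each case, and R09-00261R_C was called under all 11 alternatives. The median difference ran from -0.15 to 0.12 when a shoot array was left out. The 99 probes steady over 5 groups became 61 with normexp, loess and Aquantile, 69 with 75th percentile scaling, and 52 to 109 without 1 IR64 array. Of the other probes of these loci on S2, 34 were called between NB tissues (23.5% of all probes tested). This became 122 with the replicate block (55.0%), 75 with scan date as a block (41.7%), 14 when only the groups of a pair were fitted (16.1%), 55 with normexp, loess and Aquantile (30.8%), and 8 to 41 without 1 array (11.03% to 25.7%). The calls of other probes between the varieties on S2, 4 in number, became 0 to 15, and those on S1, 9, became 4 to 12. The cause of these changes was not tested. Shares of all probes called between the varieties are given above for the main fit and the replicate block only. Counts between the varieties under the other settings are therefore not read as a change of these probes. The planned count of steady probes called on S2 was not run, since 0 of them are on S2.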
